A study of Homo sapiens with 5 samples.

Results

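PSMD11, DRAP1, ARHGEF12, DHRS13 and PMF1 are 5 genes whose start sites lie next to isolated p53 peaks found in both replicates of a chromatin immunoprecipitation sequencing (ChIP-seq) experiment. ChIP-seq recovers the DNA bound by a protein with an antibody, and a peak is a stretch of the genome enriched in that DNA. All samples came from untreated VCaP cells, a human cell line established from prostate cancer. These cells express a mutant p53 and carry the fusion of TMPRSS2 with ERG, and since every sample shares both lesions, none serves as a control without them. p53 was precipitated in 2 samples with an antibody that recognises wild-type and mutant p53 alike, and ERG was precipitated in 2 samples. The input chromatin without antibody is the fifth sample, for which there is no peak list. The genes were chosen by the p53 peak positions themselves. Each had to hold, within 50 kb of its start site, a p53 peak of both replicates with no other p53 region within 100 kb. Of the 328 merged p53 regions of the series, 37 held a peak of both replicates, 8 of these were isolated, and 5 of the 8 belong to these genes. Presence, replication and isolation of p53 and its nearness to a start site are therefore given as a description. The overlap with ERG is not part of this rule, but the genes were chosen with earlier results of these data known. The deposited p53 lists are much shorter than the p53 peak sets that the study describes, and replication and isolation hold for these lists alone.

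p53 is a transcription factor that binds DNA as a tetramer through paired copies of a short motif, and hotspot mutations of its DNA-binding domain weaken the recognition of that sequence. ERG is a member of the ETS family, whose DNA-binding domain reads a GGAA core, and the fusion places it under the androgen-responsive TMPRSS2 promoter in prostate cancer. PSMD11 encodes a lid subunit of the 19S regulatory particle of the proteasome (Rpn6). DRAP1 encodes the alpha subunit of negative cofactor 2, which binds the TATA-binding protein and represses transcription. ARHGEF12 encodes a guanine nucleotide exchange factor. DHRS13 encodes a member of the short-chain dehydrogenase/reductase family. PMF1 encodes a subunit of the MIS12 complex of the kinetochore.

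Each of these genes has a 25-base sequence in a supplementary table of the study, listed there for its likeness to a probe from the CTNNB1 promoter at loci it calls bound by p53, each inside a peak interval named beside it. They are shown because their positions tie the peaks to the genes. Positions in hg19 are given for the genes and, for the probe, the place of its exact match in GRCh38. Letters run 5′ to 3′, and capitals mark the positions at which a sequence equals the probe.
PSMD11 (chr17:30771745-30771769, minus strand): GCgCCCcCGgcCCggcCCCCcTcaC
DRAP1 (chr11:65687110-65687134, plus strand): GggCCtggaCGCCCCGCCCCcTcca
ARHGEF12 (chr11:120207066-120207090, plus strand): GCCCCCaCGgcCgCCGgCCtcctcC
DHRS13 (chr17:27229932-27229956, plus strand): GCaaCCcCGCGCCCaGCagCagcgC
PMF1 (chr1:156186430-156186454, minus strand): GCCgCCTtcCcCgCCGCCCCcgGgt
CTNNB1 probe (GRCh38 chr3:41199387-41199411, plus strand): gccccctcgcgccccgccccttgtc

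The sequences equal the probe at 15 of 25 positions for PSMD11, DRAP1, ARHGEF12 and DHRS13 and at 16 for PMF1, a likeness that follows from how they were picked. All were rich in C on the strand shown. PSMD11 had 17 C, ARHGEF12 16, PMF1 15, DRAP1 14 and DHRS13 13, against 16 in the probe. Their share of G and C ran between 80% in DHRS13 and 92% in PSMD11, against 84% in the probe. The number of CpG dinucleotides was 2 in DRAP1, 3 in PSMD11, ARHGEF12 and DHRS13, and 4 in PMF1.

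The p53 lists held 227 peaks in replicate 1 and 138 in replicate 2, and the ERG lists 14337 and 11237. The lists give positions only, so the height and enrichment of a peak and the reads behind it are unknown, and no interval for a single peak can be given. Library depths, which the study states, were not used here. Peaks that overlapped by at least 1 bp were merged into a region, and regions with peaks from both replicates of a factor are called shared. Of the 16095 merged ERG regions, 9366 (58.2%) were shared.

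At 4 of the 5 genes the p53 region overlapped a shared ERG region, and the exception was DHRS13, where an ERG region lay beside it. Among all p53 regions 40.5% overlapped a shared ERG region, and among the 230 isolated p53 regions of a single replicate the share was 38.3%. With 5 genes the count is small, and no test was run on it. The 4 overlapping regions each held bases covered in all 4 lists, between 59 and 245 bp. A base covered in all 4 lists was also present in 28 of the 37 p53 regions of both replicates (75.7%) and in 23 of the 29 such regions that had another p53 region within 100 kb (79.3%), so the 80% of the 5 genes lay close to the share of replicated p53 regions in general. Counted within 1 kb in place of an overlap, all 5 genes had a shared ERG region, against 43.9% of all p53 regions. Of these 328 regions 37 held peaks of both replicates, as the 5 genes do. The 1 kb share of the 37 was not computed. It is at least 75.7%, since a base covered in all 4 lists lies in a shared ERG region.

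**Figure D1:**
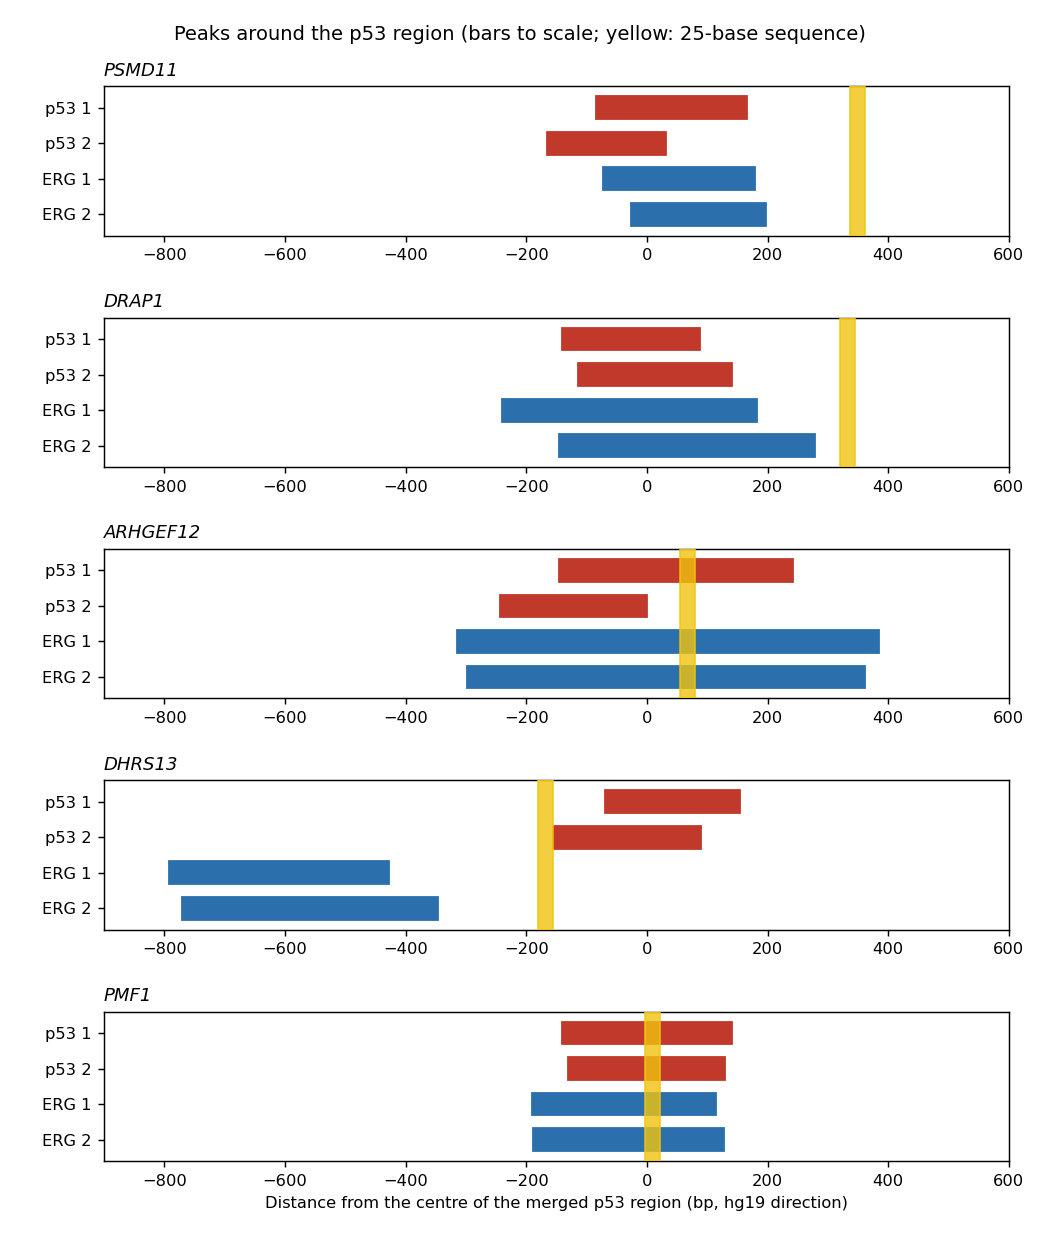
Peaks of the 4 lists around the centre of the merged p53 region of each gene (x axis, distance in bp in hg19 direction), with p53 in red, ERG in blue and the 25-base sequence in yellow, all to scale. p53 and ERG bars overlie each other at PSMD11, DRAP1, ARHGEF12 and PMF1, and at DHRS13 the ERG bars end 191 bp before the p53 bars begin.

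At PSMD11 the p53 peak spanned chr17:30771325-30771574 (250 bp) in replicate 1 and chr17:30771243-30771440 (198 bp) in replicate 2. The peaks were offset, with 116 bp in common, which is 34.9% of the 332 bp they cover together. ERG peaks lay at chr17:30771337-30771587 (251 bp) in replicate 1 and chr17:30771382-30771605 (224 bp) in replicate 2. The ERG peaks matched each other more closely than the p53 peaks did, with 206 bp or 76.6% of their union in common. ERG covered 71.7% of the p53 region, and the midpoints of the merged p53 and ERG regions were 62.5 bp apart. Among the 4 overlapping genes PSMD11 had the fewest bases in all 4 lists, 59 bp.

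At DRAP1 the p53 peak spanned chr11:65686649-65686878 (230 bp) in replicate 1 and chr11:65686676-65686931 (256 bp) in replicate 2. They had 203 bp or 71.7% of their union in common. The ERG region, chr11:65686551-65687068, was 518 bp wide and contained the p53 region whole. Its peaks measured 422 bp in replicate 1 and 425 bp in replicate 2. The midpoints of the p53 and ERG regions differed by 19.5 bp, the smallest distance among the 4 overlapping genes.

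At ARHGEF12 the p53 peak spanned chr11:120206865-120207253 (389 bp) in replicate 1 and chr11:120206768-120207011 (244 bp) in replicate 2. The replicates had 147 bp or 30.2% of their union in common, the lowest share of the 5 genes, and the midpoint of replicate 2 minus that of replicate 1 was -169.5 bp. The ERG region, chr11:120206697-120207394, had peaks of 698 bp and 660 bp, so that ERG contained the p53 region whole here too. These were wide peaks for their lists, since 92.7% of the peaks in ERG replicate 1 and 94.7% in ERG replicate 2 were narrower.

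At PMF1 the p53 peak spanned chr1:156186291-156186573 (283 bp) in replicate 1 and chr1:156186302-156186561 (260 bp) in replicate 2. The replicate 2 peak lay inside the other, 91.9% of the union was common, and this was the closest match of replicates among the 5 genes. The ERG region, chr1:156186242-156186560, was 319 bp wide with peaks of 305 bp and 317 bp, and it covered 95.4% of the p53 region. PMF1 had the most bases in all 4 lists, 245 bp. This stretch has near copies on chromosome 21, described below, and from which place its reads came was not tested.

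At DHRS13 the p53 peak spanned chr17:27230043-27230266 (224 bp) in replicate 1 and chr17:27229957-27230201 (245 bp) in replicate 2, with 159 bp or 51.3% of the union in common. No ERG peak of either list overlapped them. The nearest ERG region was shared and lay on one side at chr17:27229319-27229765, with a peak of 365 bp in replicate 1 and of 425 bp in replicate 2. It ended 191 bp from the p53 region, and its midpoint minus that of p53 was -569.5 bp. DHRS13 thus had p53 and ERG side by side within 1 kb where the other 4 genes had them on the same bases.

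Over the 5 genes the replicate p53 peaks had a median of 51.3% of their union in common (30.2% to 91.9%). The median was 71.1% over the 37 p53 regions of both replicates, and 74.0% over all shared ERG regions. PSMD11, ARHGEF12 and DHRS13 lay below both medians, DRAP1 lay near both, and PMF1 lay above. The merged p53 regions of the 5 genes were 283 to 486 bp wide (median 310 bp), against a median of 443 bp and a range of 240 to 2168 bp over the 37. In p53 replicate 2 the peaks of all 5 genes were narrower than the median of the list (291.5 bp), which 50% of that list is by definition. In replicate 1 this held for 2 of 5, DRAP1 and DHRS13, against 49.8% of the list below its median of 231 bp.

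**Figure D2:**
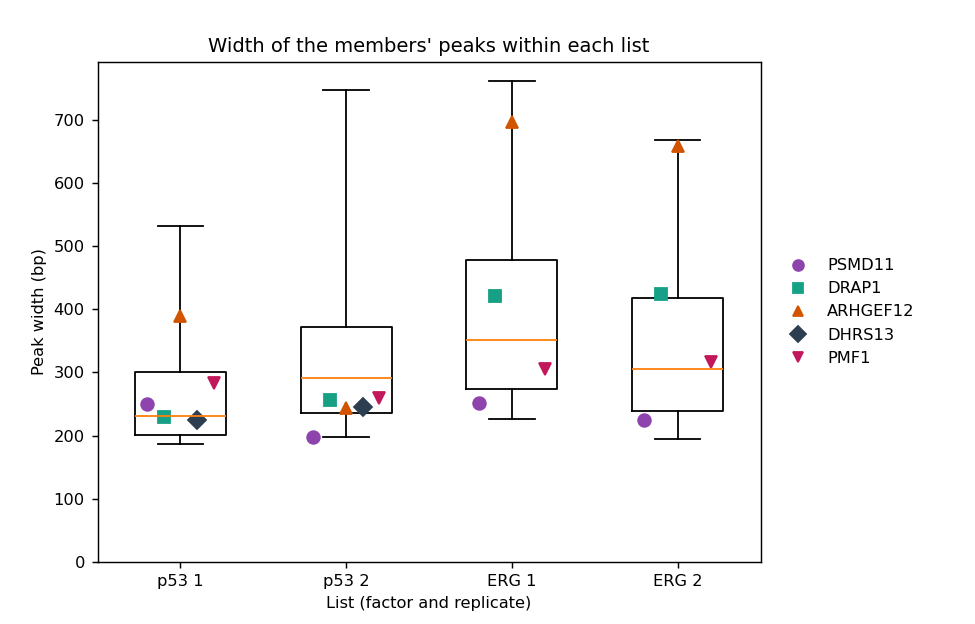
Width of the peaks at each gene (y axis, bp) in each list (x axis, factor and replicate), where a box spans the quartiles of all peaks of the list with its median as a line, and whiskers reach the 5th and 95th percentiles. All 5 genes lie below the median line of 291.5 bp in p53 replicate 2, and ARHGEF12 is near the upper whisker in both ERG lists, where DHRS13 has no point since no ERG peak overlaps its p53 region.

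The peaks of PSMD11 were small in nearly every list. In p53 replicate 2 only 3.62% of peaks were narrower than its 198 bp, in ERG replicate 1 15.9% were narrower and in ERG replicate 2 18.3%. p53 replicate 1 was the exception, where 56.8% of peaks were narrower. ARHGEF12 showed a difference of another kind, since 88.5% of the p53 replicate 1 peaks were narrower than its peak but 30.4% of those in replicate 2.

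At 4 of the 5 genes the p53 region lay at the start site, and at PMF1 it lay further on, which is a description since the choice used nearness within 50 kb. The start sites are known here only to the nearest kb in hg19. The midpoint of the p53 region minus the start was 0.41 kb for PSMD11, -0.21 kb for DRAP1, 0.01 kb for ARHGEF12 and 0.11 kb for DHRS13, with positive values towards higher hg19 positions. These distances are smaller than the 1 kb to which the start is known. By themselves they place the peak at the start but not on one side of it, and their signs are not reliable. PMF1 is listed as an interval, and for it the value was 3.43 kb from the lower end of that interval, more than that uncertainty.

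A finer placing was possible in GRCh38 through the 25-base sequences, whose exact matches were looked up in the genome. PSMD11, DRAP1, ARHGEF12 and DHRS13 each matched 1 place. The ARHGEF12 sequence lay at chr11:120336357-120336381 and its midpoint was -44 bp from the start, just upstream. The PSMD11 sequence (chr17:32444727-32444751) lay 229 bp past the start in an intron, and the DRAP1 sequence (chr11:65919639-65919663) 225 bp past the RefSeq start, also in an intron. From the nearest GENCODE start of DRAP1 the same sequence was at -73 bp, upstream, and from that of the neighbour C11orf68 at -589 bp, so its side of the start depends on the annotation. The DHRS13 sequence (chr17:28902914-28902938) lay in a coding exon, 153 bp past the RefSeq start of this minus-strand gene and 39 bp past the nearest GENCODE start. The midpoint of the sequence minus that of the p53 region in hg19 was 348.5 bp at PSMD11 and 332 bp at DRAP1. It was 67.5 bp at ARHGEF12 and -167.5 bp at DHRS13. If spacing is alike in both builds, which was not checked, the p53 midpoint lay upstream of the RefSeq start at each of these genes.

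The PMF1 sequence had 5 exact matches. One lay at chr1:156216639-156216663, in an intron of PMF1 and of the PMF1-BGLAP readthrough gene, 3644 bp past the RefSeq start. The other 4 lay on chromosome 21, of which 3 were at base 200 of the ribosomal RNA precursor genes RNA45SN1, RNA45SN2 and RNA45SN3 and 1 had no RefSeq gene. Over 325 bases centred on the sequence, 315 (96.9%) were identical between PMF1 and each of these copies, with a longest unbroken run of 91 bp. From which of these places the reads of the PMF1 peaks came was not tested. Without PMF1, 3 of 4 genes overlapped a shared ERG region.

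In hg19, the sequence lay within the p53 region at ARHGEF12 and PMF1 only, and within the shared ERG region at the same 2 genes. At ARHGEF12 it was covered by the p53 peak of replicate 1 and not by that of replicate 2, and at PMF1 by both. At DHRS13 it abutted the p53 region without overlapping it and lay 166 bp from the ERG region, between both regions. At PSMD11 it lay 170 bp from the p53 region and 139 bp from ERG. At DRAP1 it lay 178 bp from p53 and 41 bp from ERG, so that at both genes the ERG region was nearer to it than the p53 region. All 5 sequences thus lay within 200 bp of the p53 region, and since the study lists them at loci bound by p53, their nearness is not an independent observation. The study lists each inside a peak interval, which at PSMD11, DRAP1 and DHRS13 therefore reaches beyond the deposited p53 region used here.

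The promoter sequences of ARHGEF12, PSMD11 and DHRS13 are shown for the comparison of the start with the peaks, since the first window of ARHGEF12 holds its 25-base sequence (from base 195) and the windows of PSMD11 and DHRS13 hold the most and the fewest GGAA cores of the 5 genes, with ARHGEF12 level with PSMD11. The windows were not placed against the hg19 peaks, and a link of these counts to ERG was not tested. Each window is from RefSeq (GRCh38.p14), runs 5′ to 3′ in the direction of the gene and reaches from 250 bases before to 50 bases after the start. Capitals mark GGAA or its reverse complement TTCC.
ARHGEF12 (chr11:120336163-120336462, plus strand): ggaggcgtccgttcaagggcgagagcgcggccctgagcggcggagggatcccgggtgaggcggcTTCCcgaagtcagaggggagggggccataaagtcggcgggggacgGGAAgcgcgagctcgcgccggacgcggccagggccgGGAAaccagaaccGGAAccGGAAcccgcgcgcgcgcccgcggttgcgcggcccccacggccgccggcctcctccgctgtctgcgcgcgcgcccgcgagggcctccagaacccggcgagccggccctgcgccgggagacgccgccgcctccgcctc
PSMD11 (chr17:32444260-32444559, plus strand): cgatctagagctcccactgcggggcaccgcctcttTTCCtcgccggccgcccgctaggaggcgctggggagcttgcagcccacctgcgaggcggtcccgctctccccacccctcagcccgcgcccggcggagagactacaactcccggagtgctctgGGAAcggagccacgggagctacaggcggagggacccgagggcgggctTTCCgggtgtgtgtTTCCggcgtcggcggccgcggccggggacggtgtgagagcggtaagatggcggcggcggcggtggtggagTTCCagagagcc
DHRS13 (chr17:28903030-28903329, minus strand): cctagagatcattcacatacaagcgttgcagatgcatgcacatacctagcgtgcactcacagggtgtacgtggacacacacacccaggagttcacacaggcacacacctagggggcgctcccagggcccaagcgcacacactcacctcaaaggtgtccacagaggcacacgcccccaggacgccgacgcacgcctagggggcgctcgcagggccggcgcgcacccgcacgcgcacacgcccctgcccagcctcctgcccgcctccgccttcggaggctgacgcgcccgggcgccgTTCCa

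A promoter window was found for all 5 genes, and ARHGEF12 had 2. All motifs were searched on both strands. GGAA occurred 5 times at PSMD11, 5 at ARHGEF12, 3 at DRAP1, 3 at PMF1 and 1 at DHRS13. This core is short and 95.5% of the 35114 promoter windows held it, with a median of 3. For DHRS13, 4.55% of all windows had fewer, and for PSMD11 and ARHGEF12 71.4% had fewer. The longer ETS sequence CCGGAAG, of which every match also holds a GGAA, was in none of the windows of the 5 genes and in 10.3% of all windows. The decamer of the p53 response element was likewise in none of them and in 6.63% of all windows. These windows end before most of the 25-base sequences, and a missing match says only that these letters are not in the window.

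The windows were rich in CpG, a dinucleotide that is depleted from most of the genome and dense at many promoters. ARHGEF12 had 51 in its first window, DRAP1 42, PSMD11 35, DHRS13 27 and PMF1 26, against a median of 14 over all windows. The share of windows with fewer CpG was 99% for ARHGEF12, 94.2% for DRAP1, 85.9% for PSMD11, 71.8% for DHRS13 and 69.9% for PMF1. The second ARHGEF12 window, at chr11:120385077-120385376 and far from the p53 peak, had 3. The GC box GGGCGG, the recognition sequence of SP1, occurred 10 times at DRAP1, 2 times each at PSMD11 and PMF1 and not at ARHGEF12 or DHRS13, and was in 45% of all windows. CCAAT, read by NF-Y, occurred 3 times at PMF1 and in none of the windows at PSMD11, DRAP1 and DHRS13, against 34.6% of all windows. ARHGEF12 had none in its first window and 1 in its second.

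ERG regions were counted within 50 kb of each start site, and for PMF1 within 50 kb of its whole listed interval. The surroundings of the 5 genes held 21 ERG regions, of which 18 were shared and 3 came from a single replicate. That is 85.7% shared, against 58.2% of all ERG regions. DRAP1 had 6 shared regions, PMF1 5, DHRS13 3, PSMD11 2 and ARHGEF12 2. The single regions lay at DHRS13 (2) and ARHGEF12 (1), and all 3 were peaks of ERG replicate 1, the longer list.

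**Figure D3:**
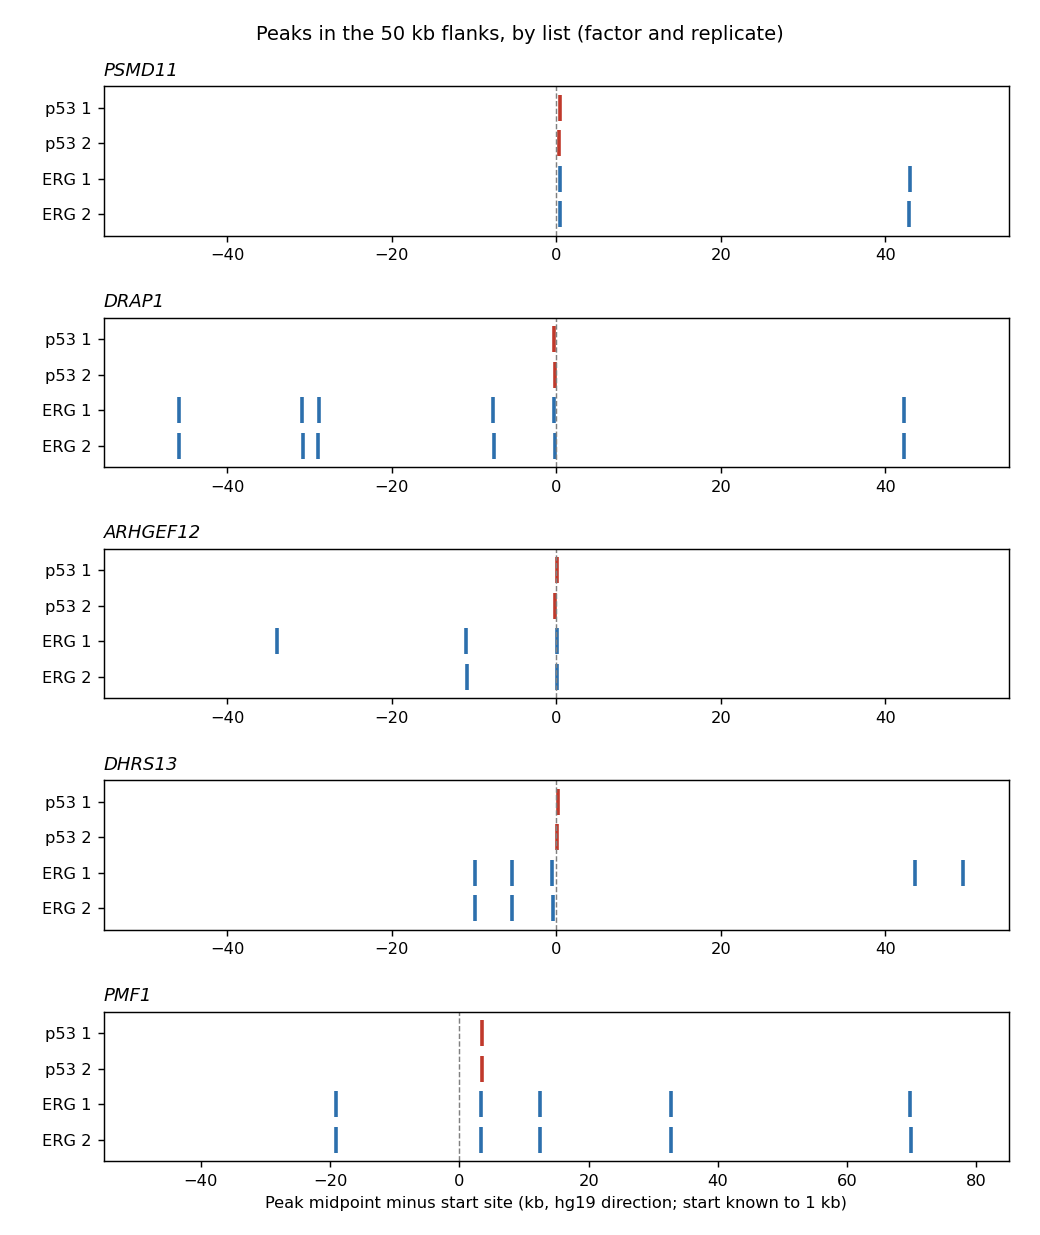
Midpoints of the peaks in each list (rows) within 50 kb of the start site of each gene (x axis, kb from the start in hg19 direction, start known to 1 kb), with p53 in red and ERG in blue. For PMF1 the 50 kb are taken around its whole listed interval, and distances from the lower end of it. p53 has 1 mark per list at each gene, and ERG has a mark of both replicates next to it at every gene, with further ERG marks on one or both sides.

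Around DRAP1, which lies between C11orf68 and TSGA10IP, shared ERG regions other than the overlapping one lay 7.16, 28.3, 30.02, 42.1 and 45.4 kb from the p53 region. The one at 30.02 kb was 950 bp wide, with peaks of 878 and 879 bp. At PSMD11, between ZNF207 and CDK5R1, the other ERG region lay 42.1 kb away and was 561 bp wide. At ARHGEF12, between TLCD5 and GRIK4, the other shared ERG region lay 10.4 kb away and was 532 bp wide. At DHRS13, between FLOT2 and PHF12, further ERG regions lay 4.89 and 9.66 kb away with widths of 820 and 327 bp. At PMF1, between SLC25A44 and BGLAP, they lay 8.68, 22.3, 29.0 and 66.0 kb away. The last of them was within 50 kb of the upper end of the listed PMF1 interval and not of its start. The neighbours are named by gene order, and no expression was measured here.

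Counted around the midpoint of the p53 region, the numbers of shared ERG regions within 50 kb were 2 at PSMD11, 6 at DRAP1, 2 at ARHGEF12, 3 at DHRS13 and 4 at PMF1, a median of 3. Over all 328 p53 regions the median was 1 (quartiles 0 and 2, highest 12), and over the 230 isolated p53 regions of a single replicate it was also 1 (quartiles 0 and 2, highest 7). Around the shared ERG regions themselves the median number of other shared ERG regions was 0 (quartiles 0 and 1). That count leaves out the region itself, while the counts around p53 include an ERG region that overlaps p53. The ERG count is therefore not on the same basis as the p53 counts. All 5 genes thus had 2 or more, as 34.8% of all p53 regions did, and DRAP1 was among 6 p53 regions with 6 or more (1.83%). The genes were chosen at start sites and for p53 peaks of both replicates, and the background regions were not. How far nearness to start sites or replication accounts for these numbers was not tested.

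**Figure D4:**
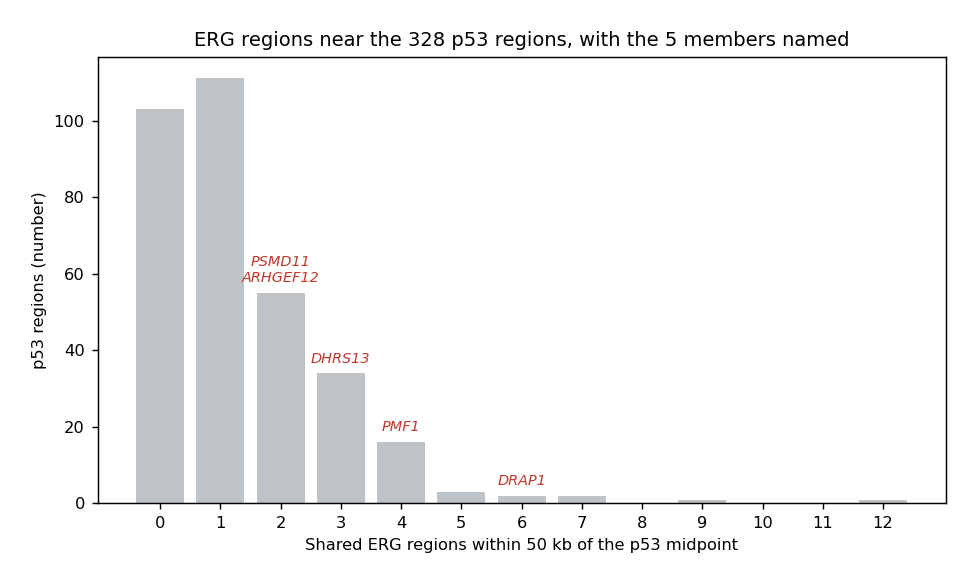
Number of p53 regions (y axis) by their number of shared ERG regions within 50 kb of the midpoint (x axis), over all 328 p53 regions, with the bars that hold the 5 genes labelled. The genes sit at 2 to 6, and most p53 regions sit at 0 or 1.

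The isolation of the 5 regions can be read from the gap to the next p53 region of either replicate. It was 378 kb at PSMD11, 496 kb at DRAP1, 821 kb at ARHGEF12, 1213 kb at PMF1 and 1806 kb at DHRS13. Just outside the limit of 100 kb were the replicated p53 regions chr11:118306873-118307207, with a gap of 94.6 kb, and chr18:108158-108471, with 97.7 kb. Just inside it was chrX:185034-187201, with 272 kb, followed by PSMD11. The other 3 isolated regions of both replicates lay at chr5:10125-11780, chrX:185034-187201 and chrY:135047-136606, near the start of their chromosomes and with widths of 1656, 2168 and 1560 bp, against 283 to 486 bp at the 5 genes. The chromosome 5 region overlapped a shared ERG region, and those on X and Y overlapped an ERG peak of 1 list only.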

How the data were processed

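ChIP-seq was performed on VCaP cells with 2 p53 samples, 2 ERG samples and 1 input. Per the submitters' processing notes, CASAVA 1.4, Bowtie2 2.3.3.1 and MACS2 were used with hg19 (GRCh37). The authors called peaks for each p53 and ERG sample, and the deposited lists hold 4 columns per line with the chromosome, start, end and name of a peak. They carry no signal, p-value or summit. The study states a p-value threshold for p53, but the deposited p53 lists are shorter than its p53 peak sets, so whether that threshold made them was not settled. The study calls the replicates biological, while the labels do not mention separate cultures.

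Positions were counted from 1 and peaks merged at an overlap of 1 bp. Start sites in hg19 were known to 1 kb. PMF1 was listed as an interval, so its flank was taken around that interval and its distances from the lower end. Genes were named by a fixed rule: the 5 genes, the 2 nearest protein-coding genes on each side by order (in the GRCh38 annotation), and CTNNB1 for its probe. The genes and lists were chosen with earlier results of these data known, so no test was run. The 25-base sequences come from a supplementary table of the study, whose starts were read as counted from 0, and their exact matches were searched in GRCh38. Promoters were taken from RefSeq (GRCh38.p14). Positions were not converted between builds. The peak merging was tested on simulated data, where 20 of 20 simulations were recovered. Alternatives comprised other overlap rules, isolation limits and flanks, wider peaks only and leaving out each replicate. Python 3.11.15, numpy 2.4.6 and matplotlib 3.10.9 were used.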

Additional observations from a re-analysis of the deposited data

How the results depend on the processing

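Of 36 alternative values, 25 stayed close to the reported one and 11 moved, by more than 1.5 times for a number or by at least 1 SD over the values with a replicate left out for a distance. The 4 overlaps with ERG stayed at 4 under a reciprocal overlap of 50%, midpoints within 100 bp, ERG peaks of either replicate, same-numbered replicates and each replicate left out (4 to 4). With only peaks at least as wide as the median of their list the number was 0, since all 5 genes lose their p53 replicate 2 peak. Isolated genes numbered 3 with a reciprocal overlap of 50% (DRAP1, DHRS13 and PMF1) and 2 with isolation over 1 Mb (DHRS13 and PMF1). The median number of shared ERG regions in the flanks, 3, became 5 with ERG peaks of either replicate, and 3 to 5 with an ERG replicate left out (5 without ERG replicate 2). The median distance to the start, taken from starts known only to 1 kb, was 210 bp. It became 69 bp from the nearest edge, and 196.5 to 236.5 bp without a p53 replicate. All these values are below that 1 kb, so neither the distance nor its stability is resolved. The median distance of p53 and ERG midpoints, 33 bp, ran between 26.25 and 80 bp (80 bp without p53 replicate 1). Of the 25-base sequences 2 lay within the p53 region, 5 within 200 bp of it and 1 to 2 without a p53 replicate (1 without p53 replicate 1). Leaving out PMF1 was chosen after seeing the data. It gave a distance to the start of 160.75 bp, again from starts known to 1 kb, and 1 sequence within the p53 region. No paired analysis was possible because every value here is a count or a distance without a test, and same-numbered replicates are given above. A stricter peak threshold was not run, as no score stands beside a peak. With 2 lists per factor and no scores, peaks missing from a list cannot be told apart from peaks just under its threshold.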
